A study of Mus musculus with 2 samples.

Results

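The genes described here encode the proteins of the mitochondrial ribosome and of respiratory chain complexes I to V, and the measurements are of DNA elements near them. The members were the protein-coding genes of GENCODE vM21 basic whose symbol begins with Mrpl, Mrps, Ndufa, Ndufb, Ndufs, Ndufv, Uqcr, Atp5, Cox4, Cox5, Cox6, Cox7 or Sdh. An element belonged to a member when, of all protein-coding genes, that member had the transcription start nearest to the element's midpoint, within 100000 bp. The rule took 170 genes of 21924, and 49 of the 10531 listed elements lay nearest to 35 of them. It also took 12 genes for assembly factors, such as Ndufaf6 and Sdhaf1, and it left out subunits under other symbols.

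The elements came from STARR-seq, a reporter assay in which genomic fragments sit in the transcribed stretch of an episomal plasmid, so that each fragment is counted in its own RNA. Naive CD4-positive alpha-beta T cells of mouse strain C57BL/6NJ, with sex not collected and age unknown, were transfected transiently and kept for 3 days with anti-CD3e, anti-CD28, anti-Interleukin-4, anti-Interferon-gamma and Interleukin-2. This was the only group, it had 2 biological replicates labelled as separate biosamples of 1 donor record, and the labels name no second condition. The deposited list holds 1 effect, p-value and adjusted p-value per element for both replicates together, so no value per replicate, spread between replicates or depth is given, and the cell label could not be checked against marker transcripts. Effects are the authors' values and are taken as log2, but no source used here states the base of the logarithm or which way the contrast runs. An effect above 0 is called positive and likely stands for a gain of reporter RNA over input, although that reading of the sign is an assumption. Every listed element had an adjusted p of at most 0.01, and the list held 9.18% of the 114722 tests that the adjusted values imply. A fragment nearest to a gene need not act on that gene, and in a plasmid it is read away from its chromosome.

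Mitochondria carry their own small genome, whose messages are translated by a dedicated ribosome with a large and a small subunit. The proteins of that ribosome, and most subunits of the respiratory chain, are encoded in the nucleus and imported. Complexes I and II pass electrons to quinone, complex III passes them to cytochrome c, complex IV reduces oxygen, and complex V, the ATP synthase, uses the proton gradient to make ATP. T cells enlarge this machinery when they leave quiescence. Textbook regulators of these nuclear genes are NRF1, the ETS-family factor GABP (also called NRF-2), YY1, ERR alpha and the coactivators of the PGC-1 family.

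The stretches upstream of 3 member starts with a positive effect are shown to let them be set beside negative ones. All sequences printed are mm10 (RefSeq's GRCm38.p6 assembly). These upstream stretches, and those of the negative starts, are on the strand of the named gene and end at the base before an annotated start, with exons left out. The Atp5d stretch is chr10:80141201-80141456, plus strand, inside an element with an effect of 2.40. The Mrpl30 stretch is chr1:37890412-37890476, plus strand, in an element with an effect of 1.32, and the Ndufa1 stretch is chrX:37191164-37191244, minus strand, in an element with an effect of 1.07. Capitals mark matches to the ETS core CCGGAA in Atp5d and Mrpl30, to the cyclic AMP response element (CRE) TGACGTCA in Atp5d, and to the GC box core GGGCGG, on the reverse strand, in Ndufa1.
Atp5d: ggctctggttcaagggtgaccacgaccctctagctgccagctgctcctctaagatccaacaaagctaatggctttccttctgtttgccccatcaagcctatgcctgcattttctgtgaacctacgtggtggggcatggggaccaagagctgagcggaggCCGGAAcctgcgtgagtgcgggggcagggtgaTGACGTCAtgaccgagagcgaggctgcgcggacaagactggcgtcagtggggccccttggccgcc
Mrpl30: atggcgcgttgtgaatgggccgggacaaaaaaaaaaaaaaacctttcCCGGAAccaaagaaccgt
Ndufa1: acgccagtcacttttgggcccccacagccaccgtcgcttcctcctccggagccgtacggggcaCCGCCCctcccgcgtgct

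Upstream stretches of 5 starts with a negative effect show the different sequence content that went with the same sign. The Atp5h stretch is chr11:115419963-115420127, minus strand (effect -1.72), with the NFY motif CCAAT capitalised on the reverse strand. Mrps6 is shown at chr16:92057970-92058269, plus strand (-1.53), with 5 GC box cores in capitals. Cox4i1 is shown at chr8:120668122-120668221, plus strand (-1.21), between the starts of Emc8 and Cox4i1. It has a GC content of 82% and 7 GC box cores in capitals, all on the reverse strand and most of them overlapping. Mrpl43 is shown at chr19:45006443-45006557, minus strand (-1.21), between the starts of Twnk and Mrpl43, with 3 ETS cores in capitals. Mrps22 is shown at chr9:98601661-98601900, minus strand (-0.83), with 2 ETS cores and the longer THAP11/ZNF143 motif in capitals. Its GC box core is left in lower case.
Atp5h: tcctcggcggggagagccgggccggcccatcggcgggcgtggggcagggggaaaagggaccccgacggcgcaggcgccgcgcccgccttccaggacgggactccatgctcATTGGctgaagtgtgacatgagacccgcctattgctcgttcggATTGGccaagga
Mrps6: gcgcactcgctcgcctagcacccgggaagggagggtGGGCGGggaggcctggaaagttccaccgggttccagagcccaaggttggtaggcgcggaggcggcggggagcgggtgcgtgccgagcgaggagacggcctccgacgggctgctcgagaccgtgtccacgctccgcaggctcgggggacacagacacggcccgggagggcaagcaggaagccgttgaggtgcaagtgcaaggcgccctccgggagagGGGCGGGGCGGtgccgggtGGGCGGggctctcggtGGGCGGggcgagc
Cox4i1: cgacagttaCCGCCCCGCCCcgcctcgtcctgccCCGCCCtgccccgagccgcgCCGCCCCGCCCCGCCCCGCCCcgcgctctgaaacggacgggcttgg
Mrpl43: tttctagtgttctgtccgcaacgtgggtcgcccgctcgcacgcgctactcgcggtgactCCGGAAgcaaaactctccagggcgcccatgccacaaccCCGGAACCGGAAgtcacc
Mrps22: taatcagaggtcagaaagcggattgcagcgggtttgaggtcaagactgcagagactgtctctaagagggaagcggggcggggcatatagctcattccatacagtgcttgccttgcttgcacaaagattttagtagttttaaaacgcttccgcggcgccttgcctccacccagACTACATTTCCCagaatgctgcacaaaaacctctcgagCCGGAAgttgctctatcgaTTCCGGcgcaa

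The YY1 motif AAGATGGC was found in the same place, across the start codon, at the listed member starts of Sdhc, Ndufs7 and Mrps24, and these sites are shown because the elements that hold them had opposite signs. The capitals mark the motif, whose ATG was the annotated start codon in all 3 genes, so the sites lie partly in the 5′ untranslated region and partly in coding sequence. They are at chr1:171150565-171150590 in Sdhc (minus strand, effect 0.96), chr10:80249464-80249489 in Ndufs7 (plus strand, -1.06) and chr11:5707649-5707674 in Mrps24 (minus strand, -1.57). The elements at the starts of Atp5h, Mrps7 and Atp5j also held the motif and are not shown.
Sdhc: ccggaactcAAGATGGCtgcgttctt
Ndufs7: gccgaggccAAGATGGCggcgctggc
Mrps24: cgccggcccAAGATGGCgtggtccgc

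The strongest member elements were repeated sequences, and 3 are shown whole because near-identical copies lie elsewhere in the genome. Cox6c is chr15:35943776-35943900, plus strand; Mrpl33 is chr5:31631476-31631625, minus strand, turned so that the likeness to Cox6c can be read; Ndufa6 is chr15:82364726-82364950, plus strand. The capitals mark the GC box core, which the Ndufa6 element lacks.
Cox6c: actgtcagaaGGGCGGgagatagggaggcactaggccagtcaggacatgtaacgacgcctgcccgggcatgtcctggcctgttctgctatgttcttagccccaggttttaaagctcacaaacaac
Mrpl33: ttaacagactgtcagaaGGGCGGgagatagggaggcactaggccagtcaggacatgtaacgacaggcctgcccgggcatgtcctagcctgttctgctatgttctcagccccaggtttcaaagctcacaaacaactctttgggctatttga
Ndufa6: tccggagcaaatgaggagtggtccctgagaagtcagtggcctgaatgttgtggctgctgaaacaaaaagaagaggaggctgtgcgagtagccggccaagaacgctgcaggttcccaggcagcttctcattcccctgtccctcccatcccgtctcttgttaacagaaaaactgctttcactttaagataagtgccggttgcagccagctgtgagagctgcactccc

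Distal elements with unique sequence are represented by the central 300 bp of the Cox7a2 element, chr9:79772201-79772500, and by the whole distal Mrps6 element, chr16:92022076-92022275, both on the plus strand. They are shown for their match to the AP-1 motif TGANTCA, in capitals; AP-1 is a factor that T cell activation brings to enhancers. The Mrps6 element also holds an E-box, CACGTG, in capitals near its end.
Cox7a2: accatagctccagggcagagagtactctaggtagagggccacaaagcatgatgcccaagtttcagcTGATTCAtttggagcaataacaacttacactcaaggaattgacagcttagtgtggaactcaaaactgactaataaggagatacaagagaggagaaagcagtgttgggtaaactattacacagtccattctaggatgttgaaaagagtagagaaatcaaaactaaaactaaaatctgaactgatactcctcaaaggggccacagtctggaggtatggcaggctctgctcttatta
Mrps6: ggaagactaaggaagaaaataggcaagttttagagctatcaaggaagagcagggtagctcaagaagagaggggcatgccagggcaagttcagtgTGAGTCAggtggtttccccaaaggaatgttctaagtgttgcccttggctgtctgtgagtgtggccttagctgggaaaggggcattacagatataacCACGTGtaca

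Members had a listed element less often than protein-coding genes in general. An element was assigned to 35 of 170 members (20.6%), against 31.2% of all protein-coding genes. A positive element was assigned to 23 members (13.5%), against 16.0% of all genes, and a negative element to 15 members (8.82%), against 19.7%. These shares come from a single call set, carry no replicate error and were not tested. Of the 49 elements, 33 (67.3%) were positive and 16 were negative, while 51.3% of all listed elements and 47.3% of those nearest to other genes were positive. Within 10000 bp of the start the majority turned, with 12 positive and 13 negative. The median effect of the positive member elements was 1.34, ranging from 0.67 to 4.91, beside 1.33 for other genes. Negative member elements had a median of -1.21 and ranged from -1.72 to -0.83, beside a median of -1.44 for other genes. Effects of 2 or more in absolute size belonged to 9 of the 49 (18.4%), all positive, beside 22.0% of the elements of other genes. Negative elements were wider, with medians of 737.5 bp for negative and 475 bp for positive ones, beside 800 and 475 bp over all listed elements.

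**Figure D1:**
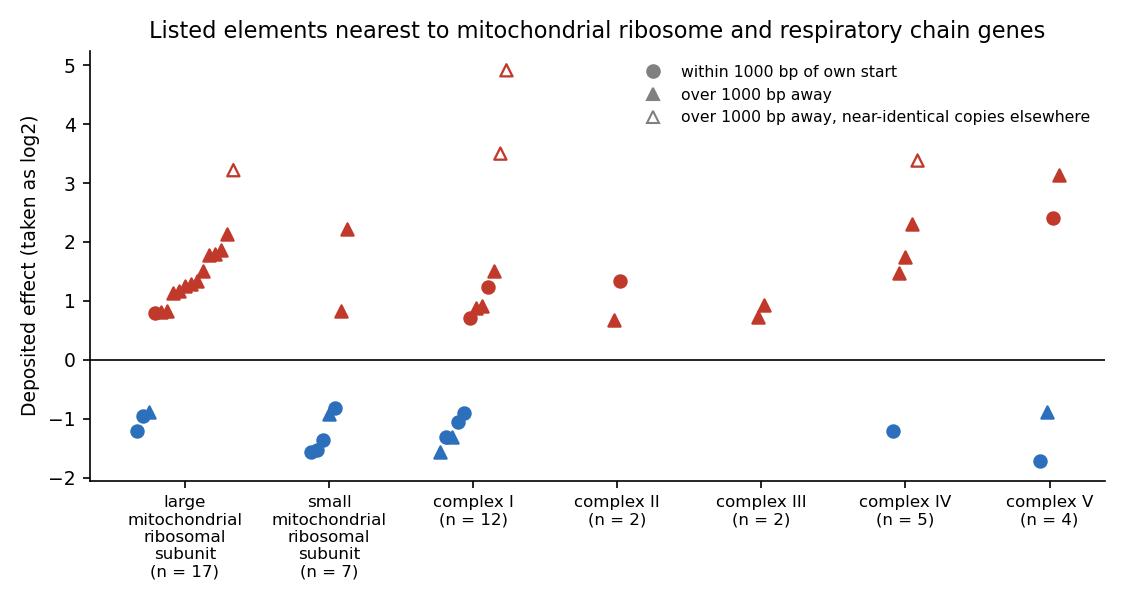
Deposited effect (vertical axis, taken as log2) of each of the 49 elements, grouped along the horizontal axis by the complex of the nearest member gene and ordered by effect within it; red is positive and blue negative. Circles lie within 1000 bp of the gene's own start and triangles farther away, and open triangles have near-identical copies elsewhere. Negative elements stop at -1.72, most circles are blue, and the 4 open triangles lie between 3.22 and 4.91.

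Genes of the large mitochondrial ribosomal subunit had 17 elements at 9 of 49 genes, 14 of them positive. Negative effects lay at the starts of Mrpl43 (-1.21, midpoint 42 bp from the start) and Mrpl58 (-0.95, 43 bp). Mrpl58 encodes a peptidyl-tRNA hydrolase that frees stalled mitochondrial ribosomes, and Mrpl43 shares its promoter region with Twnk, the mitochondrial DNA helicase. Mrpl1 had the most elements, 4, and both signs. Its upstream element at 11830 bp had an effect of 1.80 and the one 202 bp from a start had 0.79. In its introns, an element of -0.89 at 11919 bp lay next to one of 1.77 at 13006 bp. These neighbours in the same gene body therefore had opposite signs. Mrpl45, whose protein helps hold the ribosome at the inner membrane, had 3 positive elements. They had effects of 1.25 at 11291 bp, 1.34 at 5828 bp and 2.14 at 6584 bp. The element of 1.25 was 50 bp wide, the narrowest width among members, and wholly repeat-masked. The element of 2.14 was intronic and lay 189 bp from the start of a processed pseudogene, Gm11594.

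The other large subunit elements were all distal and positive. Mrpl46 had 3 intergenic elements 57026 to 91926 bp downstream, with effects of 1.29, 1.13 and 1.86. Mrpl33 had one of 1.51 at 37064 bp and the repeated one of 3.22 at 17611 bp, in an intron of the ribokinase gene Rbks. Mrpl22 had one of 1.16 at 12289 bp, in intergenic DNA with 2 matches to the interferon-stimulated response element (ISRE). Mrpl48 had one of 0.81 at 8023 bp in its own intron. The Mrpl39 element (0.82, 22454 bp away) lay in an intron of Mir155hg, 852 bp from the start of Mir155. Mir155hg is the host gene of miR-155, a microRNA that activated lymphocytes make, so for this element the nearest protein-coding gene was not the nearest gene.

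Small subunit genes showed the reverse balance, with 5 of 7 elements negative. Mrps24 (-1.57, 237 bp from its start), Mrps6 (-1.53, 70 bp), Mrps7 (-1.36, 25 bp) and Mrps22 (-0.83, 97 bp) had them at the start. The protein of Mrps7 is the counterpart of a bacterial small subunit protein that begins the folding of the ribosomal RNA, and its element also covered the opposite-strand start of Gga3. Mrps31 had a negative intergenic element (-0.92) 5523 bp upstream. Mrps6 also had a positive element, 2.21, at 36095 bp, the distal one shown above. Mrps28 had a positive element of 0.82 in its own intron, 77930 bp from its start. All 5 small subunit genes with a listed element at a start had a negative one, while the large subunit genes had 3 positive and 2 negative. Of the 4958 listed elements at starts of other genes, 84.4% were negative. Position also differed between the subunits. Within 1000 bp of their own start lay 4 of the 7 small subunit elements and 3 of the 17 large subunit ones.

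Complex I genes had 12 elements at 9 of 44 genes, 7 positive and 5 negative. Negative effects were listed at the starts of Ndufab1 (-1.31, 2 bp), Ndufs7 (-1.06, 114 bp) and Ndufaf6 (-0.90, 66 bp). Ndufab1 is the mitochondrial acyl carrier protein, Ndufs7 a core subunit near the quinone site and Ndufaf6 an assembly factor. The most negative complex I element, -1.57 and 1125 bp wide, was nearest to Ndufs3 at 12886 bp. Its midpoint lay in Ptpmt1, a mitochondrial phosphatase gene of the cardiolipin pathway, and 70 bp from the start of Gm17661, neither of which counts as protein-coding in this annotation. A positive effect at the start belonged to Ndufb11 (1.23, 44 bp), a membrane arm subunit whose start faces that of Rbm10. Ndufb6 had elements of 0.88, 1.50 and -1.31 at 23504, 33767 and 78004 bp upstream, the second of them 44 bp from the start of the noncoding gene 4930509K18Rik. Ndufs6 had one of 0.92 at 22517 bp. Ndufa6, a subunit that binds the acyl carrier protein, had the highest values of all members, 3.50 and 4.91, at 10341 and 10516 bp upstream in repeats.

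Complexes II and III had 4 elements, all positive and none above 1.34. Sdhb, the iron-sulfur subunit of succinate dehydrogenase, had an intronic one of 0.67, the lowest positive effect among members and only 50 bp wide. Sdhaf1, which helps that subunit take up its clusters, had one of 1.34 in its untranslated region, 820 bp from the start. Uqcrfs1, the Rieske protein of complex III, had elements of 0.93 and 0.72 at 5138 and 19826 bp upstream.

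Complex IV genes had 5 elements at 5 of 15 genes. Cox4i1, the widely expressed isoform of subunit IV, had a negative effect at its start (-1.21, 22 bp), where Emc8 starts on the opposite strand. The 4 positive elements were all distal. Cox4i2, the isoform known from lung and from low oxygen, had one of 1.48 at 32569 bp, inside an intron of Bcl2l1, which encodes the survival protein Bcl-xL. Cox6a1 had one of 1.74 at 30144 bp in an intron of Gm13832, Cox7a2 one of 2.31 at 12472 bp in an intron of Tmem30a, and Cox6c one of 3.38 at 5592 bp in a repeat. In 3 of these 4 the midpoint thus lay in another gene.

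Complex V genes had 4 elements, 2 of each sign, with the most negative and 2 of the higher positive values among members. Atp5h, subunit d of the peripheral stalk, had -1.72 at 12 bp from its start, which faces that of Kctd2, and -0.88 at 5257 bp. The second of these was the widest member element, 1250 bp. Atp5d, the delta subunit of the central stalk, had an effect of 2.40 and, in the authors' deposited table, the lowest adjusted p of all members, 5.06e-11. Its element was centred 7 bp from the most upstream start among the basic transcripts of the gene. Atp5k, subunit e, had one of 3.13 at 6465 bp upstream, with 72% of its bases repeat-masked but no near-identical copy found.

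**Figure D2:**
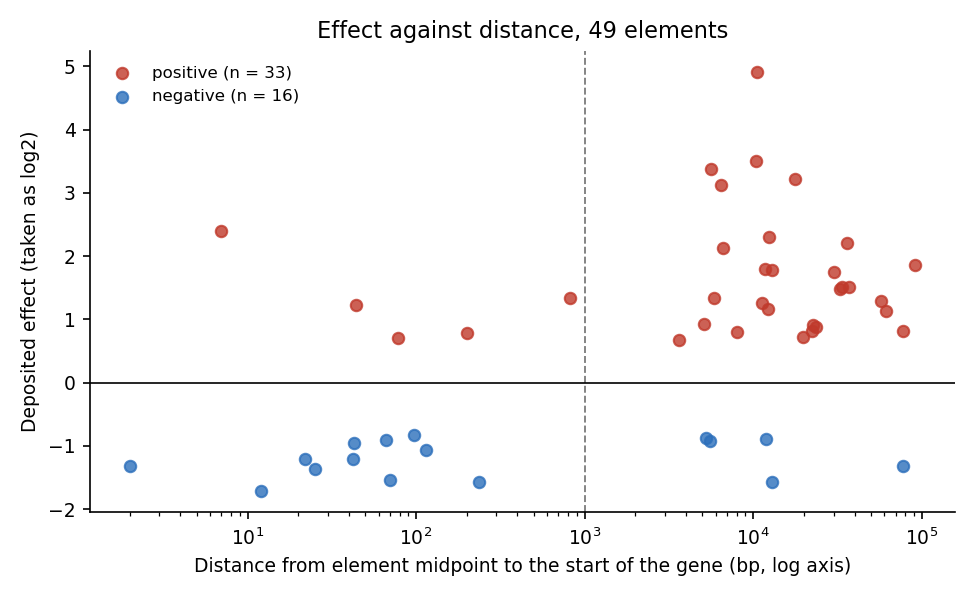
Deposited effect (vertical axis, taken as log2) against the distance from the element's midpoint to the start of its gene (horizontal axis, bp, log scale), 33 positive elements in red and 16 negative in blue; the dashed line marks 1000 bp. Within 1000 bp 11 elements are negative and 5 positive, and beyond it 5 are negative and 28 positive.

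Position split the 2 signs. Of the 16 negative elements, 11 lay within 1000 bp of the start of their own gene, against 5 of 33 positive ones. Over all listed elements, 81.9% of negative and 14.4% of positive ones lay that near, so the members follow the same split, with a smaller share for the negative ones (68.8%). Of the 33 elements farther away, 6 had their midpoint inside the assigned gene, 6 inside another gene and 21 in no gene, and 24 of the 49 lay over 10000 bp away. GC content split the signs as well, with a median of 62.7% in negative and 49.9% in positive member elements, beside 67.6% and 47.7% over all listed elements.

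**Figure D3:**
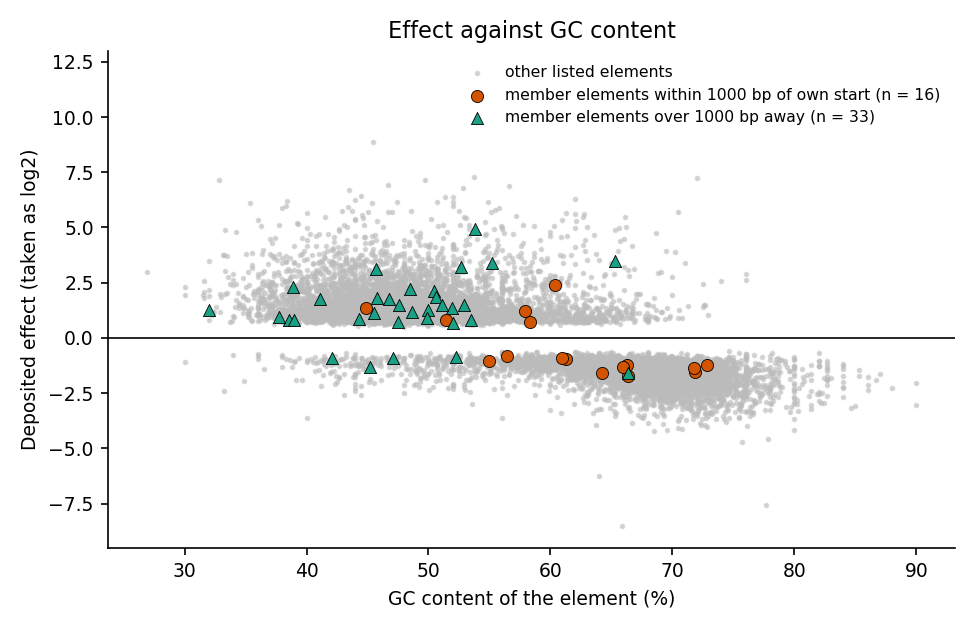
Deposited effect (vertical axis, taken as log2) against the GC content of the element (horizontal axis, percent), with other listed elements in grey, member elements within 1000 bp of their own start as orange circles (n = 16) and member elements farther away as green triangles (n = 33). The negative circles lie at a GC content of 55.0 to 72.9%, and the positive triangles from 32 to 65.3%.

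Member starts were also examined whichever gene the element was assigned to, because many members share a promoter region. An element with its midpoint within 1000 bp of a member start was listed for 25 of 170 members (14.7%), against 22.0% of all protein-coding genes. A negative one was listed for 14 members (8.24%), against 18.4%, and a positive one for 11 members (6.47%), against 3.80%. Assignment gave 16 of these 25 elements to the member and 9 to a neighbour. Those 9 were Ndufa1 (1.07), Ndufa13 (1.37) and Ndufb9 (-0.94) of complex I, Sdhc (0.96) of complex II, Uqcrh (-1.08) of complex III, Atp5j (0.72) of complex V, Mrpl30 (1.32), Mrpl48 (0.79) and Mrps18c (-1.18). The Atp5j start, for a peripheral stalk subunit, faces that of Gabpa, the DNA-binding subunit of GABP, and a single element with 4 ETS core matches covered both.

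Opposite-strand starts were common. A protein-coding start on the other strand lay within 1000 bp of 64 of 170 members (37.6%), against 10.5% of all protein-coding genes and 15.2% of the 92 cytosolic ribosomal protein genes. A listed element lay at the start of 14 of the 64 (21.9%) and of 11 of the other 106 (10.4%). For all genes the corresponding shares were 28.8% and 21.2%. The 14 elements at shared member starts were 7 positive and 7 negative.

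Negative starts were also compared at like promoter GC content, range by range. The window from 250 bp before to 50 bp after the start had a median GC content of 57.3% in members and 55.7% in all genes. At under 45% GC, 0 of 14 members had a negative element at the start, against 2.49% of all genes. At 45 to 50% members had the larger share, 2 of 17 (11.8%) against 6.29%, and at 50 to 55% the smaller, 1 of 29 (3.45%) against 8.04%. Among members with 55 to 60% GC, 1 of 54 (1.85%) had a negative element at the start, against 12.3% of all genes in that range. At 60 to 65% it was 4 of 31 (12.9%) against 21.3%, at 65 to 70% it was 2 of 16 (12.5%) against 34.9%, and at 70% or more 4 of 9 (44.4%) against 62.3%. The shares of all genes, weighted to the members' GC ranges, came to 16.6% for negative and 4.19% for positive starts, beside the 8.24% and 6.47% of members. The exact binomial intervals of the member shares in single GC ranges are wide and cover counting error only. The interval was 0.0469 to 9.89% at 55 to 60% GC and 3.63 to 29.8% at 60 to 65%. It was 1.55 to 38.3% at 65 to 70% and 13.7 to 78.8% at 70% or more. These intervals treat genes as independent, although some members share a start region with another member, such as Mrpl46 with Mrps11. They were not corrected for the several GC ranges, so they are no test of members against all genes.

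**Figure D4:**
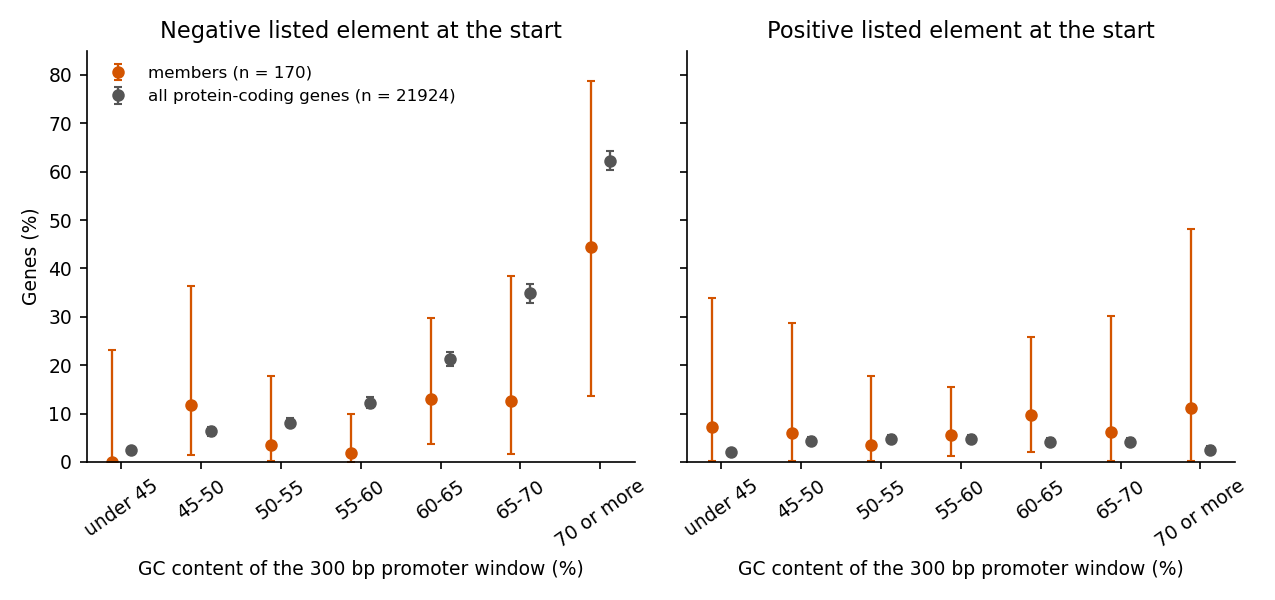
Share of genes (vertical axis, percent) with a negative (left) or positive (right) listed element within 1000 bp of a start, by GC content of the 300 bp promoter window (horizontal axis, percent), for 170 members (orange) and all 21924 protein-coding genes (grey). Bars are exact binomial 95% intervals, and negative shares rise with GC content in all genes, to 62.3% at 70% GC or more against 44.4% in members.

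Of the elements listed at member starts, 11 of 25 (44%) were positive, against 15.5% of the 4949 at starts of other genes. Their median effect was 1.07, beside 1.17 at other starts, and the 14 negative ones had a median of -1.19, beside -1.48. Only 3 of the 14 were more negative than the median at other starts, which were Atp5h, Mrps24 and Mrps6. At a GC content of 60 to 65%, 2 of 7 elements at member starts were positive, against 18.1% at other starts. At 65 to 70%, 2 of 5 were, against 3.52%, and at 55 to 60% 3 of 4, against 53.7%. Member shares were smaller at 50 to 55%, with 3 of 4 (75%) against 84.8%, and at 70% or more, with 0 of 4 against 0.786%. Under 45% the 1 element at a member start was positive, against 91.4% at other starts. At 45 to 50% no element was listed at a member start. All of these counts were small. The cytosolic ribosomal protein genes, a second set of ribosome genes, had an assigned element in 17 of 92 (18.5%), with a negative element at 8.70% and a positive one at 6.52% of starts.

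Consensus motifs known from mitochondrial promoters were more frequent in the members' promoter windows than in those of all genes, a difference that was not tested. The windows were not matched for sequence content, and their median CpG content was 60 per kb in members and 40 in all genes. The ETS core contains a CpG and the YY1 motif does not. The ETS core was matched in 71 of 170 windows (41.8%) against 18.02%, and the longer ETS motif CCGGAAGT, which contains the core, in 10.0% against 4.92%. YY1 was matched in 20 (11.8%) against 2.97%, THAP11/ZNF143 in 13 (7.65%) against 2.73%, and the palindromic NRF1 motif in 7 (4.12%) against 1.24%. The GC box core was matched in 47.6% against 44.9%, its longer form SP/KLF (GGGGCGGGG) in 14.1% against 15.3%, and NFY in 35.9% against 38.9%. For CRE the shares were 4.12% and 2.49%, for the E-box 7.06% and 7.77%, for E2F (TTTCCCGC) 1.18% and 1.40%, and for the ERR motif TCAAGGTCA 1.18% and 0.442%. AP-1 was matched in 5.29% against 6.70%, ISRE in 3.53% against 3.56% and ZBTB33 in 1.18% against 0.616%. Both strands were searched, and a match is a description of letters, not of binding.

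**Figure D5:**
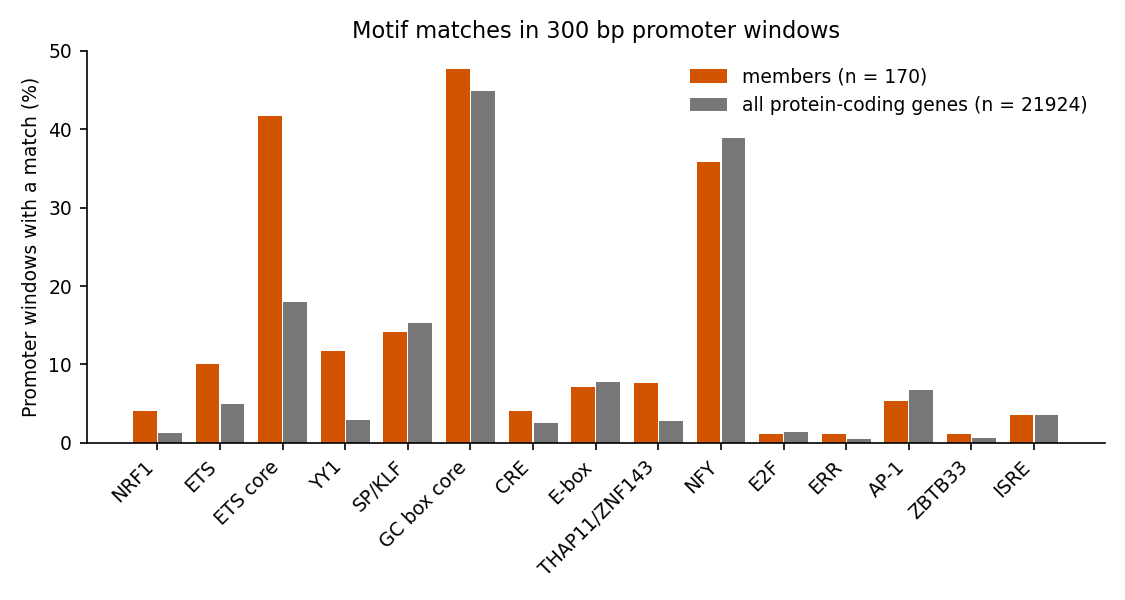
Share of 300 bp promoter windows (vertical axis, percent) with at least 1 consensus match on either strand, for each of 15 motifs (horizontal axis), in 170 members (orange) and all 21924 protein-coding genes (grey). The ETS core stands at 41.8% against 18.02% and YY1 at 11.8% against 2.97%, while GC box core and NFY are close in both.

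Most YY1 matches on the sense strand lay on the start codon. Of the 15 sense matches in member windows, 12 (80%) had their ATG at the annotated start codon, against 35.5% of the 431 sense matches in all genes. That made 12 of 170 members (7.06%) with the motif on the start codon, against 0.698% of all genes, among them Mrps10, Mrps18a, Mrps18b, Mrps24, Mrps27, Ndufa3, Ndufa9, Ndufb8 and Sdhc. Of these named genes, Sdhc had a positive and Mrps24 a negative element listed at the start, as in the sites shown above. Ndufs7 carried the motif on its start codon too, outside the window of its most upstream start. Matches to THAP11/ZNF143 lay before the start in all 17 member cases, at a median of 68 bp upstream.

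Matches were then set beside the listed elements, without a test. The 7 members with an NRF1 match in the window, Atp5g2, Atp5k, Cox6a1, Mrpl9, Ndufa11, Ndufaf4 and Ndufaf5, all had no listed element at the start, where 14.7% of all members had one. The start element of Ndufa13 (1.37) did hold an NRF1 match, outside that window. Of the 13 members with a THAP11/ZNF143 match, Mrps22 alone had one. ETS cores were matched in the windows of 15 of the 25 members with a listed start element and of 56 of the other 145. The 11 negative elements at own starts held an ETS core in 8 cases (72.7%), beside 39.3% of the 4187 negative start elements of other genes. They held YY1 in 4 cases (36.4% beside 6.45%), none of them in the central 200 bp, and SP/KLF in 5 (45.5% beside 41.7%). Weighting the other genes to the same GC content gave 39.6% for the ETS core and 6.15% for YY1.

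In distal elements, the AP-1 motif was matched in 10 of 28 distal positive member elements (35.7%), beside 39.7% of the 3758 of other genes. The 10 with a match had a median effect of 1.14, with a highest value of 2.31 at Cox7a2, and the 18 without one had a median of 1.76. In other genes the medians were 1.22 and 1.46. The 18 member elements without a match included the 4 with near-identical copies elsewhere, at 3.22 to 4.91. No median was taken without those 4. ISRE was matched in 2 distal positive member elements (7.14%), those nearest to Mrpl22 and Mrpl39, beside 19.5% for other genes. None of the 28 held NRF1, CRE or THAP11/ZNF143.

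Repeats supplied the highest member effects. Of the 9 elements with an absolute effect of at least 2, 4 had near-identical copies elsewhere, meaning at least 95% identity over at least 95% of the element. The Cox6c element (3.38) had 54 other copies on 18 chromosomes, and the Mrpl33 one (3.22) had 74 on 19. Aligned to each other on opposite strands, as printed above, these 2 shared 122 of 127 columns (96.1%). Listed elements lay at 13 of the Cox6c copies, all positive, with effects of 2.37 to 3.70 and a median of 2.84. They lay at 17 of the Mrpl33 copies, all positive, with the same lowest and highest effects and a median of 2.87. Most genes nearest to the Cox6c set recurred in the Mrpl33 set, so the 2 sets overlap and are not separate observations. The Ndufa6 element of 4.91 had 51 copies, 3 of them listed and positive with effects of 3.90 to 5.04, and its neighbour of 3.50 had 8 copies, none listed. How reads of such copies were placed is not given in the sources used here, so the signal of the Cox6c, Mrpl33 and Ndufa6 loci and that of their copies cannot be told apart. Without these 4, the distal positive member elements had a median of 1.31 in place of 1.49. Copies were found for 8.16% of member elements and 5.30% of all listed ones, and for no negative member element. Over all listed elements, they were found for 10.2% of positive and only 0.0781% of negative ones, so a positive sign was usual for such copies.

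Some members are neighbours. Mrpl58, Atp5h and Mrps7 lie on chromosome 11 with gaps of 8476 and 183251 bp between their elements, and their 4 elements were all negative (-0.95, -0.88, -1.72 and -1.36). On chromosome 10, Atp5d and Ndufs7 had elements of opposite sign (2.40 and -1.06) separated by 107251 bp. Just inside the 100000 bp limit lay the Mrpl46 element at 91926 bp (1.86) and the Ndufb6 element at 78004 bp (-1.31). Just outside it lay one 101587 bp from Mrps10 (1.96) and one 117884 bp from Cox7c (4.80), which were not counted.

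The other genes of the pathway, a list of 110 assembly factors, translation factors, mitochondrial DNA and RNA factors, nuclear regulators and subunits outside the symbol rule, had an assigned element in 35 (31.8%), near the 31.2% of all protein-coding genes. The groups of this list differed, so its pooled share does not describe each of them. An element was assigned to 10 of 13 nuclear regulators (76.9%), but to 22.5% of 40 assembly factors and 14.3% of 7 subunits. For translation factors and further ribosome genes the share was 28.0% of 25, and for mitochondrial DNA and RNA factors 32.0% of 25. Over the whole list, a positive element was assigned to 24 (21.8%), against 16.0%, and a negative one to 14 (12.7%), against 19.7%. Among assembly factors 9 of 40 had an element, led by Coa7 (3.39), Cmc2 (2.94) and Cox17 (2.57), and followed by Lyrm7, Uqcc1, Cox18, Pet100 and Sco1 between 0.86 and 2.37. Tmem126b (-0.99) had the only negative one by assignment, while 3 of the 40 had a negative element within 1000 bp of a start. Cox17 is the copper chaperone of complex IV, and its element lay 3 bp from the start. The Lyrm7 element lay at one of the copies of the Cox6c repeat. Among translation factors and further ribosome genes, Nsun4 (1.17), Mtrf1l (1.06), Malsu1 (0.98) and Mterf4 (0.83) had positive elements, Mtfmt (-1.51), Gadd45gip1 (-1.26) and Pdf (-1.12) had negative ones at the start, and of the listed subunits outside the rule Ndufc2 (0.92) had one. Mitochondrial DNA and RNA factors with positive elements were Mterf1b (up to 5.43), Mterf1a (up to 3.43), Polg2 (1.81) and Tfam (0.91). The elements of 5.43 and 3.43 each had a near-identical copy elsewhere, so they and their copies cannot be told apart. Negative elements in that group lay nearest to Mgme1 (-1.70), Polg (-1.60), Hsd17b10 (-1.13) and Fastkd5 (-1.05).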

How the data were processed

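The authors deposited 1 list of elements on build mm10, per the labels, for both replicates. The deposited effect was taken as log2, and the deposited p-value and adjusted p-value were read as given on the linear scale. The aligner, caller and input library are not given in the sources used here. Members and lists were chosen with earlier results of these data known. Starts came from GENCODE vM21 basic, and promoter windows were placed at the most upstream basic start. Of 111 listed pathway genes, 110 were found. For 15 motifs, exact consensus matches on both strands were counted in GRCm38.p6; the ETS motif contains the ETS core, and SP/KLF contains the GC box core. Alignment for copies used minimap2 2.31. The genome was indexed by samtools 1.23.1 and queried through pysam 0.24.0. The remaining tools were Python 3.11.15, NumPy 2.4.6, pandas 2.3.3, SciPy 1.17.1 and matplotlib 3.10.9. Assignment and motif counting were checked on simulated data. Intervals on shares are 95% Clopper-Pearson and cover counting error only. No test was run, since the list has no value per replicate.

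The genes named were every member with a positive element, with several elements or with an element over 1000 bp away; per complex the 3 most negative and the 1 nearest to 0; the widest and narrowest elements; and, of the other pathway genes, those with a positive element and the 3 most negative. Of these, 1 member is not reported here. Nuclear regulators beyond these, members named for a motif and members at shared starts were named after their values were seen. Alternatives changed the distance limit, the gene types, the definition of a start element, the adjusted p limit, the width, copies and the motif window.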

Additional observations from a re-analysis of the deposited data

How the results depend on the processing

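Counts changed with the limits on distance and adjusted p, and the balance of signs changed with distance. The number of members with an element (35) became 23 within 10000 bp and 16 at an adjusted p of at most 1e-04. Positive elements (33) became 12 within 10000 bp, 19 with starts of any gene type, 11 when an element had to overlap a member start region and 17 at 1e-04. Negative elements (16) became 13 within 10000 bp and 14 with the overlap rule, so that under both they outnumbered positive ones and the positive majority of the main count did not hold. With starts of any gene type they were 12. They became 8 when the adjusted p limit was 0.001 and 3 at 1e-04, where their median moved from -1.21 to -1.57. Elements at a start of any gene type (20) became 13 and 7 at those limits. The other 31 values stayed within 1.5 times or, for medians, within their interval. Of 30 motif shares, 12 moved beyond their counting interval in the central 200 bp or after GC weighting. No paired analysis was possible because the list holds no value per replicate, and leaving out a replicate was not possible for the same reason. Depth is unknown, so a gene without a listed element may have been untested, shallow or unchanged.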

Other observations

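Several nuclear regulators of these genes had elements of their own. Of 13 regulators in the list, 10 had a listed element within 1000 bp of a start, 4 positive and 6 negative. Over all protein-coding genes the share was 22.0%, with 3.80% positive and 18.4% negative. The regulators were not matched for GC content, and in all genes the negative share rose with it, to 62.3% at 70% GC or more. Nrf1 had the most negative effect of the list, -3.26 at 13 bp from its start, with -1.37 and 2.25 farther away. Ppargc1b, a coactivator of the PGC-1 family, had -2.45 at its start and 1.47 in an intron, and Pprc1, a related coactivator, had 0.79 at its start. Gabpa and Gabpb1, which encode the subunits of GABP, had opposite signs at their starts (0.72 and -1.42). Yy1 (-0.99) and Thap11 (-0.78) were negative and Zfp143 (0.91) positive at the start, and Hcfc1, a cofactor of several of these, had positive elements of 1.39, 1.53 and 2.62. Myc, which drives growth of activated T cells, had -0.76 at its start and 1.17 and 1.62 farther away. After Nrf1 and Ppargc1b, the most negative effect in the list was that of Mgme1 (-1.70), a nuclease of mitochondrial DNA, followed by Polg (-1.60), the mitochondrial DNA polymerase.

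Negative member elements often had adjusted p-values near the listing limit of 0.01. An adjusted p above 0.005 was listed for 7 of the 16 (43.8%), beside 14.5% of all negative elements. The paralogs Mterf1a and Mterf1b had near-identical copies of their start elements (3.43 and 3.69) and of a distal element each (2.87 and 5.43), so the loci and their copies cannot be told apart.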
